A study of Mus musculus with 6 samples.

Results

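Aquaporins are a family of membrane channels, and 10 of them were followed here as rows of the deposited gene table, which lists 34745 genes. The rows were found by gene symbol, and the members were Aqp1, Aqp2, Aqp3, Aqp4, Aqp5, Aqp6, Aqp7, Aqp8, Aqp9 and Aqp11. RNA was sequenced from prostate tissue of male C57BL/6 mice, 3 of the CON group and 3 of the T + E2 group, all of them separate animals. Mice entered the study at 6 to 8 weeks of age and were acclimatized before surgery. In the T + E2 group a slow-release pellet of testosterone (T) and estradiol (E2) was placed under the skin, the pellet was exchanged every month, and tissue was taken after 12 weeks. Mice of the CON group were of the same age and strain and received the skin incision and suture without a pellet. Per the paper, their operation was likewise repeated at the monthly exchanges. They were killed at the same time. The labels and the study's methods name no engineered allele. The question behind the comparison was which genes differ in prostates enlarged by combined androgen and oestrogen.

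Aquaporins let water, and in some members glycerol, urea, ammonia or hydrogen peroxide, cross cell membranes along a gradient. The orthodox water channels are Aqp1, Aqp2, Aqp4, Aqp5, Aqp6 and Aqp8, of which Aqp8 also passes ammonia and hydrogen peroxide. The aquaglyceroporins are Aqp3, Aqp7 and Aqp9, and Aqp11 is an unorthodox member found mainly in the endoplasmic reticulum. The prostate is an exocrine gland whose epithelium secretes ions and water into the seminal fluid, and channels of this family sit in the apical or basolateral membranes of such secretory cells.

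Of the 10 aquaporins, 4 were upregulated in the T + E2 group and 0 were downregulated. Aqp8 rose from near the detection limit to the highest level of the family, by a log2 fold change of 9.48. Aqp9, Aqp5 and Aqp11 rose by 2.23, 1.80 and 1.79 on the log2 scale. Aqp1, the most abundant aquaporin of the CON group, was not called different, with a log2 fold change of -0.20. The call was a differentially expressed gene (DEG), defined by an adjusted p under 0.05 (quasi-likelihood test of edgeR, Benjamini-Hochberg adjustment over 15580 genes) and an absolute log2 fold change over 1. Under this rule 4.27% of all tested genes were upregulated and 3.38% were downregulated. In all 4 upregulated members every T + E2 mouse was above every CON mouse, as in 20% of all tested genes. These members were picked by the call on the same values, so their separation is a description and not further support. Only 6 members passed the filter on low counts and could be tested, namely Aqp1, Aqp5, Aqp7, Aqp8, Aqp9 and Aqp11. Aqp9 passed through the T + E2 mice alone and Aqp8 through these and 1 CON mouse, while Aqp7 passed through the CON mice alone, so the number of DEGs among the 6 is a description and not a measure of the whole family. By an unadjusted p under 0.05, edgeR found 4 members higher and 1 lower, and DESeq2, which tested 9 members, found 4 higher and 1 lower. How many of all tested genes reach that cutoff was not computed.

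**Figure D1:**
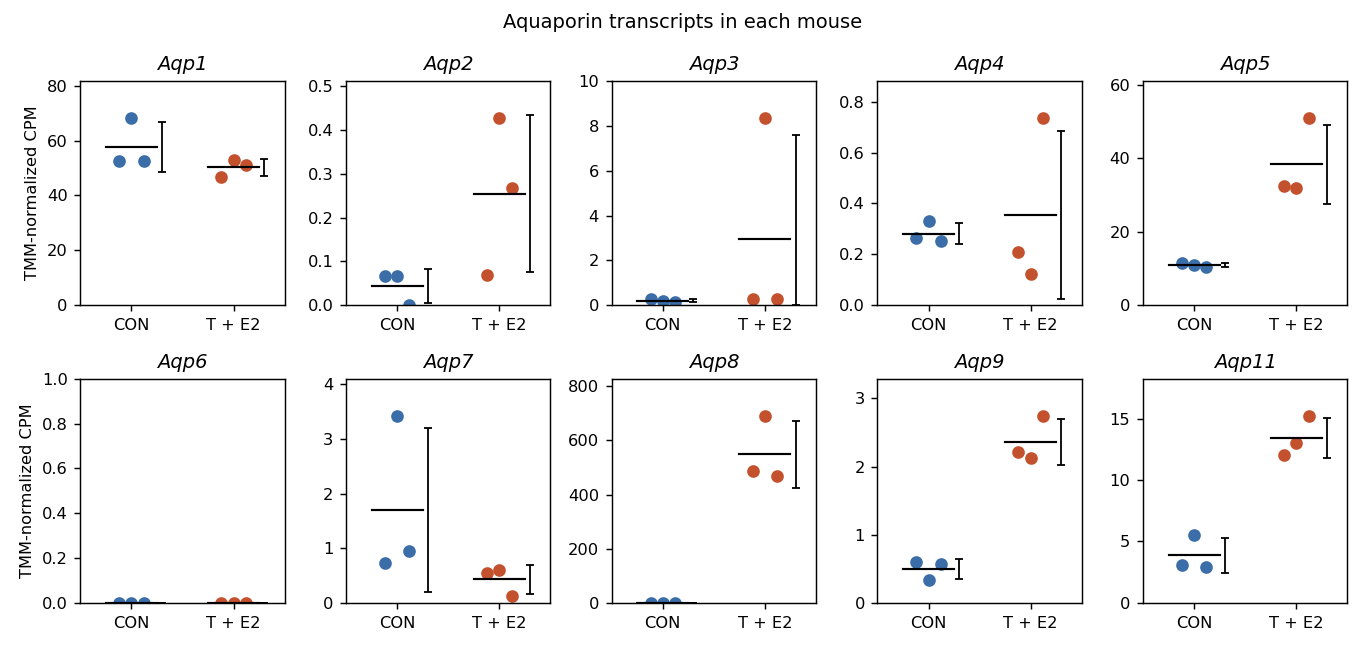
Counts per 1000000 counts of the library (CPM, TMM-normalized) of the 10 aquaporins, 1 panel per gene with its own linear axis from 0, each point a mouse, the line the group mean and the bar 1 SD over 3 mice (drawn only down to 0 for Aqp3). The CON and T + E2 points are far apart for Aqp5, Aqp8, Aqp9 and Aqp11, overlap for Aqp1, and a single mouse stands above the rest for Aqp3 and Aqp7.

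Reads counted on genes totalled 14819273 to 16026544 in the CON mice against 14816146 to 16555549 in the T + E2 mice. The detection limit was set at 3 counts of a gene, or 0.183 to 0.208 CPM, which covers counting error only. The tissue label was checked against secretory and luminal genes of the prostate, which summed to 41337 to 54716 CPM in the CON group and 19171 to 21144 CPM in the T + E2 group. Pbsn and Tgm4, secretory proteins of the prostate, set that order, since the other 9 genes summed to 8726 to 10803 CPM in the CON group and 14754 to 15682 CPM in the T + E2 group. CON 2 and T + E2 2 held transcripts of the seminal vesicle, 10325 and 643 CPM summed over 8 genes against 0.629 to 4.11 CPM in the other mice. The sum in T + E2 2 came mostly from Svs2 (484 CPM), with Svs5 (110 CPM) and Pate4 (41.9 CPM). Svs4 had 6.64 CPM there against 4587 CPM in CON 2. Svs1, Svs3a, Svs3b and Svs6 had only 4, 3, 5 and 3 counts in T + E2 2, close to the other T + E2 mice. These genes were named after their values were seen. In bulk tissue, fewer cells of a type and less RNA per cell cannot be told apart.

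Aqp8 is known for water, ammonia and hydrogen peroxide transport in colon, pancreas, liver and testis. It lies on chromosome 7 of mouse genome build GRCm38, from 123462291 to 123468004 on the plus strand. The deposited counts were 21, 8 and 6 in the CON mice against 7027, 11332 and 7033 in the T + E2 mice. Every T + E2 mouse was far above every CON mouse, and the CON mice held more than 3 counts each. On the normalized scale the group means were 0.765 ± 0.547 CPM (SD, n = 3) for CON and 548 ± 123 CPM in the T + E2 group. The rise corresponded to a 715-fold higher level, with a 95% interval from 384- to 1333-fold (adjusted p = 8.03e-06 by the quasi-likelihood test of edgeR, adjusted after Benjamini-Hochberg). Only 4 of the tested genes had a larger log2 fold change. Among all genes of a mouse ordered by FPKM, which divides a count by gene length and depth, Aqp8 moved from places 14055 to 16572 in the CON mice to places 162 to 224 in the T + E2 mice.

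The fold itself rests on very few CON counts. CON 1 carried most of them, and the log2 fold change ran from 9.15 to 10.22 as each mouse was left out in turn. Markers of epididymis and vas deferens, a tissue known to express Aqp9, summed to 0.0629 to 2.1 CPM in the CON group and 6.88 to 11.8 CPM in the T + E2 group. Of the 13 genes on that list, 6 had no count in any mouse (Lcn5, Lcn8, Lcn9, Lcn10, Rnase9 and Cst8), while Adam7, a membrane protein of the epididymis, had 0 counts in all CON mice but 158, 81 and 139 in the T + E2 mice. Without Adam7 the list summed to 0.728, 2.1 and 0.0629 CPM in the CON mice against 0.899, 1.95 and 1.2 CPM in the T + E2 mice, and the groups overlapped. The part of such tissue in the levels of Aqp8 and Aqp9 was not tested.

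The sequence before the start of the upregulated genes is shown because testosterone and estradiol act through receptors that bind DNA. The lines below give, 5′ to 3′ on the strand of each gene, up to 250 bases before the RefSeq transcription start on build GRCm38.p6, cut where an annotated exon begins. They cover chr7:123462044-123462290 on the plus strand, chr7:97738290-97738497 and chr9:71162634-71162883 on the minus strand, and, for comparison, chr6:55336049-55336298 on the plus strand. Capitals mark TGACC, the letters of the oestrogen response element half-site GGTCA read on the opposite strand.
Aqp8: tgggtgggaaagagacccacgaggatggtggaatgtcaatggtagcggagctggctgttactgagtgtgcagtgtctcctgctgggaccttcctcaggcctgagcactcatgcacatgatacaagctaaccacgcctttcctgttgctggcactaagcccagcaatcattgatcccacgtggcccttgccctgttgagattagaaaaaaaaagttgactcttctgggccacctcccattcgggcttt
Aqp11: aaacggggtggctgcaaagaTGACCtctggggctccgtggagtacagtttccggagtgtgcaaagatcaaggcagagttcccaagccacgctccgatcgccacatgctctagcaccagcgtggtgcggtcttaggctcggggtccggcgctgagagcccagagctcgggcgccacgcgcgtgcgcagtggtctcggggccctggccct
Aqp9: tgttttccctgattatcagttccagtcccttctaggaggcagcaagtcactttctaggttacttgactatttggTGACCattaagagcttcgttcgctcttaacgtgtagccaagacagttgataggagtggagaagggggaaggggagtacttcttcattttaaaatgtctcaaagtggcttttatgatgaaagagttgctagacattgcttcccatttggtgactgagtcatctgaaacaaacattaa
Aqp1: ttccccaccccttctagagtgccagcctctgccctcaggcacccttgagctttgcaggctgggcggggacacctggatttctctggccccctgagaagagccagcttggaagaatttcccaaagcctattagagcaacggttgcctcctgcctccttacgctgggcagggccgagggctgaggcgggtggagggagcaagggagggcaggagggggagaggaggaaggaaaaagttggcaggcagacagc
The windows of Aqp11 and Aqp9 each held 1 such half-site, 230 and 176 bases before the start. Neither Aqp8 nor Aqp1 held one. The search covered both strands for the half-site GGTCA, found before 35.2% of 32851 RefSeq starts, its paired form GGTCANNNTGACC (0.0639%), the androgen response element half-site AGAACA (16.1%), its paired form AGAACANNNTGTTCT (0.00913%) and the TATA box letters TATAAA (12.4%). Each paired form contains its half-site. In the 250 bases before these starts, Aqp8 and Aqp1 held none of the 5 motifs, and no upregulated member held a paired form or TATAAA. Aqp5 held 1 GGTCA, 90 bases before its start, in a window of 78.4% GC that is not printed because most of it is exonic in the annotation. A second Aqp9 start lies farther upstream and held 1 AGAACA, 138 bases before it. Both RefSeq starts of Aqp9 lie within the deposited gene, 5393 and 6049 bases downstream of its first base. A match or its absence describes these windows and not the binding of a receptor.

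Aqp5 is the apical water channel of salivary, lacrimal and airway glands. It lies on chromosome 15 from 99590849 to 99594829 on the plus strand, between Aqp2 and Aqp6. Its counts were 175, 168 and 167 in the CON mice against 470, 523 and 761 in the T + E2 mice. The CON mice lay within a narrow range and all T + E2 mice were above them, T + E2 3 by the most. Group means were 11 ± 0.545 CPM in the CON group and 38.4 ± 10.7 CPM in the T + E2 group (SD, n = 3 each). Aqp5 was 3.47-fold higher, with a 95% interval from 2.55 to 4.72 (adjusted p = 0.00066 by edgeR with Benjamini-Hochberg adjustment). Epcam, an epithelial surface protein, was also upregulated, from 387, 403 and 421 CPM to 893, 982 and 873 CPM (log2 fold change 1.18, standard error 0.10). Its part in the change of Aqp5 was not tested. Other epithelial genes of the secretory and luminal list had log2 fold changes of -0.54 (Krt18), -0.15 (Krt8) and 0.34 (Cdh1). None of these was a DEG, although Krt18 and Cdh1 passed the adjusted p without the fold limit.

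The other members of the Aqp5 cluster were close to or below the limit of detection. Aqp2, the vasopressin-regulated channel of the renal collecting duct, starts at 99579056 and had 1, 1 and 0 counts in the CON mice against 1, 7 and 4 in the T + E2 mice. Aqp6, a channel of intracellular vesicles in the renal collecting duct, ends at 99605477 and had 0 counts in all 6 mice. The 3 genes span 26.4 kb, with 6.3 kb between Aqp2 and Aqp5 and 6.57 kb between Aqp5 and Aqp6. Of these neighbours Aqp5 alone could be tested. Without the filter on low counts the fit gave Aqp2 a log2 fold change of 2.37 with a standard error of 1.06, which was not called.

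Aqp1 is the water channel of capillary endothelium, red cells and the renal proximal tubule, and it lies on chromosome 6 from 55336432 to 55348555 on the plus strand. It had 52.4, 68.1 and 52.6 CPM in the CON mice against 46.8, 52.9 and 51.1 CPM in the T + E2 mice. The groups overlapped, and CON 2 was the highest mouse. The log2 fold change was -0.20 with a 95% interval from -0.49 to 0.09 (adjusted p = 0.291 by edgeR's quasi-likelihood test), which corresponds to 0.714- to 1.06-fold, so a change as large as those of the upregulated members lies outside the interval. Without CON 2 the log2 fold change was -0.06. Endothelial markers summed to 139 to 190 CPM in the CON group and 186 to 218 CPM in the T + E2 group. Of 10 tested, 1 gene, Vwf, passed the adjusted p without reaching the fold limit. The share of all tested genes at that cutoff was not computed. Red cell transcripts were higher in the T + E2 group (134 to 421 CPM against 53.9 to 66.2 CPM). Of 5 tested, 5 were upregulated, beside 4.27% of all tested genes. The part of either cell type in the level of Aqp1 was not tested.

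Aqp11 shapes the endoplasmic reticulum of the renal proximal tubule and lies on chromosome 7 from 97724006 to 97738289 on the minus strand, 25.7 Mb from Aqp8. It had 3.11, 5.52 and 2.96 CPM in the CON mice against 12, 13 and 15.2 CPM in the T + E2 mice. The groups were well separated, with CON 2 the highest of the CON mice. Means were 3.86 ± 1.44 and 13.4 ± 1.66 CPM (SD, n = 3 each), a 3.46-fold higher level with a 95% interval from 2.31 to 5.2 (adjusted p = 0.0025 by the quasi-likelihood test of edgeR, adjusted after Benjamini-Hochberg). Its transcript holds a stretch that resembles transcripts of 337 other genes over 100 bases or more with an identity of 90% or above, so reads from that stretch are uncertain.

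Aqp9 is the glycerol and urea channel of liver, leukocytes and epididymis and lies on chromosome 9 from 71110659 to 71168682 on the minus strand. Its counts were 9, 5 and 9 in the CON mice against 32, 35 and 41 in the T + E2 mice. All T + E2 mice were above all CON mice, although every level was low. Means were 0.497 ± 0.146 and 2.36 ± 0.328 CPM (SD, n = 3 each), a 4.68-fold higher level with a 95% interval from 2.82 to 7.78 (adjusted p = 0.00255 by the quasi-likelihood test of edgeR, adjusted after Benjamini-Hochberg). On the log2(FPKM + 1) scale the difference was 0.23 for Aqp9 and 0.69 for Aqp11, and neither was then a DEG, because the added 1 exceeds the FPKM of Aqp9 in every mouse and compresses changes at low levels. Neutrophil markers summed to 1.06 to 2.01 CPM in the CON group and 0 to 5.54 CPM in the T + E2 group, so these groups overlapped, and macrophage markers to 163 to 218 CPM and 247 to 366 CPM. Their part in the level of Aqp9 was not tested.

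**Figure D2:**
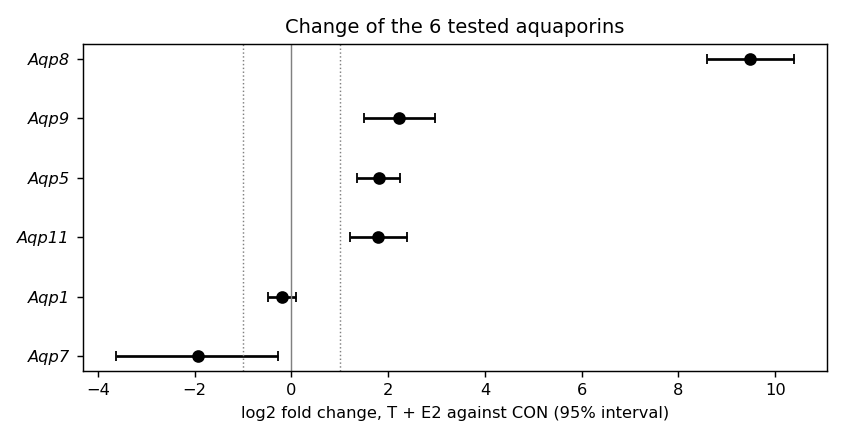
Log2 fold change of the 6 tested aquaporins, T + E2 against CON, from edgeR (points) with 95% intervals (bars) and dotted lines at a log2 fold change of 1 in either direction. The intervals of Aqp8, Aqp9, Aqp5 and Aqp11 lie above 1, that of Aqp1 spans 0, and that of Aqp7 is the widest, from -3.62 to -0.27.

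Aqp7, Aqp3 and Aqp4 were each highest in a single mouse. Aqp7 passes glycerol out of adipocytes and lies on chromosome 4 from 41033074 to 41048139 on the minus strand. Its counts were 11, 52 and 15 in the CON mice against 8, 10 and 2 in the T + E2 mice. CON 2 was far above the others, and the groups did not overlap, T + E2 being lower, as in 20.7% of all tested genes. The log2 fold change was -1.94 with a standard error of 0.73 (adjusted p = 0.0988 by edgeR's quasi-likelihood test) and it was -0.94 without CON 2. The sum of adipocyte markers was likewise highest in CON 2, at 622 CPM against 76.9 to 181 CPM in the other mice. Cidea, the only DEG of that list, went the other way (log2 fold change 1.29, standard error 0.25). It had 1.32, 1.45 and 1.38 CPM in the CON mice against 4.01, 3.47 and 2.74 CPM in the T + E2 mice. For every 1000 counts of the whole adipocyte list there were 6.29, 5.5 and 5.54 Aqp7 counts in the CON mice against 3.06, 5.22 and 1.74 in the T + E2 mice. On this ratio CON 2 was not higher than the other CON mice, and T + E2 2 lay near them. The Aqp7 transcript also holds a stretch that resembles 1269 other genes, so its small counts are uncertain.

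Aqp3 passes water and glycerol through the basolateral membrane of collecting duct, skin and urothelium, and lies 44.6 kb from Aqp7 on chromosome 4, from 41092722 to 41098183 on the minus strand. It had 4, 3 and 2 counts in the CON mice against 4, 137 and 4 in the T + E2 mice. T + E2 2 alone was high, and the other T + E2 mice were at the CON level. Without the filter on low counts the log2 fold change was 3.88 with a standard error of 1.29, which was not called. Aqp3 was 1 of 11 genes that were at least 10-fold higher in T + E2 2 than in any other mouse at 3 CPM or more. Others were Krt20 and Upk3a, both markers of the superficial urothelium, Ivl, a protein of the cornified envelope, and Saa3 and Saa1, acute-phase serum amyloid genes. These genes, like Epcam, Adam7 and Upk1a, were named after their values were seen. CON 2 had 17 such genes, several of them seminal vesicle genes, and the other 4 mice had 0. Krt20 had 2, 3 and 4 counts in the CON mice against 6, 120 and 1 in the T + E2 mice. Upk3a had 0 counts in all CON mice but 5, 99 and 3 in the T + E2 mice. The sum of the urothelial list did not single out this mouse, at 423, 643 and 514 CPM in the CON mice against 1703, 1594 and 1374 CPM in the T + E2 mice. Most of that sum was Upk1a, a uroplakin that was upregulated in the T + E2 group (log2 fold change 1.80, standard error 0.21). Upk2 and Upk3b of the list were also highest in T + E2 2, at 4.99 and 8.83 CPM against at most 3.14 and 2.08 CPM in any other mouse. Upk1a and Upk1b were highest in T + E2 1.

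Aqp4 is the water channel of astrocytes and of fast skeletal muscle fibres. It had 4, 5 and 4 counts in the CON mice against 3, 2 and 11 in the T + E2 mice. T + E2 3 alone was above the rest, and the groups overlapped. Skeletal muscle markers summed to 75.3, 348 and 178 CPM in the CON mice against 119, 93.5 and 284 CPM in the T + E2 mice, so that they were high in T + E2 3 but higher still in CON 2. For every 1000 counts of these markers there were 0.945 to 3.52 Aqp4 counts in the CON mice against 1.3 to 2.59 in the T + E2 mice. Glial markers summed to 69.2 to 103 CPM in the CON group and 37.1 to 57.7 CPM in the T + E2 group. The part of these tissues in the levels of Aqp3, Aqp4 and Aqp7 was not tested. Mip and Aqp12, the remaining mouse members of the family in the table, had 0 counts in every mouse.

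**Figure D3:**
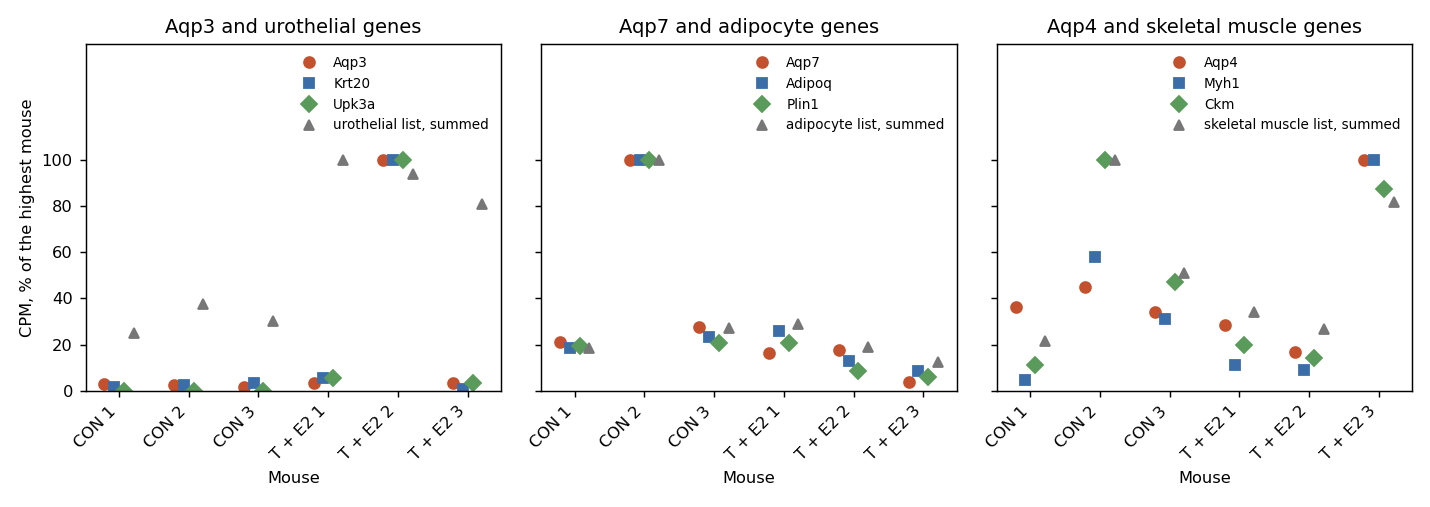
CPM of Aqp3, Aqp7 and Aqp4 in each mouse, as a percentage of the highest mouse, beside named markers and the summed marker list of urothelium, adipocytes and skeletal muscle. Aqp3, Krt20 and Upk3a share their peak in T + E2 2, where the urothelial list stands at 93.6% of its own highest mouse. Aqp7 shares its peak in CON 2 with Adipoq, Plin1 and the summed adipocyte list.

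Comparing members with one another needs values per length, so FPKM is used here. In the CON group the order was led by Aqp1 (19.9 to 26.6 FPKM) and Aqp5 (3.89 to 4.41 FPKM), each clear of the next. Below them Aqp7, Aqp11, Aqp8, Aqp3, Aqp4, Aqp9 and Aqp2 followed in that order of their means, and each overlapped its neighbour in the order. In the T + E2 group Aqp8 led with 148 to 218 FPKM, clear of Aqp1 with 17 to 20 FPKM, and Aqp1 overlapped Aqp5 with 11.6 to 19.2 FPKM. Aqp3 came next through T + E2 2 alone, followed by Aqp11 (1.02 to 1.37 FPKM) and Aqp9 (0.208 to 0.272 FPKM).

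Summed over the 10 members, the family reached 26, 32.9 and 24.6 FPKM in the CON mice against 178, 256 and 192 FPKM in the T + E2 mice. Aqp1 made up 78.2 to 80.8% of the sum in the CON group and 7.81 to 10.2% in the T + E2 group. The share of Aqp8 was 0.484 to 1.73% in the CON group and 78.6 to 85.2% in the T + E2 group. Without Aqp8 the sums were 25.6, 32.7 and 24.5 FPKM in the CON mice against 30.2, 37.9 and 41 FPKM in the T + E2 mice, and the groups then overlapped. The ratio of Aqp8 to Aqp1 FPKM, which needs no scaling between libraries, was 0.00599 to 0.0222 in the CON mice against 7.67 to 10.9 in the T + E2 mice. The ratio of Aqp5 to Aqp1 was 0.159 to 0.217 and 0.59 to 0.975.

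The length behind the deposited FPKM bears on these shares. It was 1.99 times the union of annotated exons in GENCODE M21 for Aqp8 and 2.46 times for Aqp9, while it was 1 times for Aqp1 and 1.03 times for Aqp5. Per kilobase of annotated exon, Aqp8 made up 87.7 to 91.7% of the aquaporin sum in the T + E2 mice and 0.947 to 3.35% in the CON mice. The first places in the order were then the same in each group, Aqp1 and Aqp5 in the CON group and Aqp8, Aqp1 and Aqp5 in the T + E2 group. Changes of 1 gene between mice do not depend on the length.

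**Figure D4:**
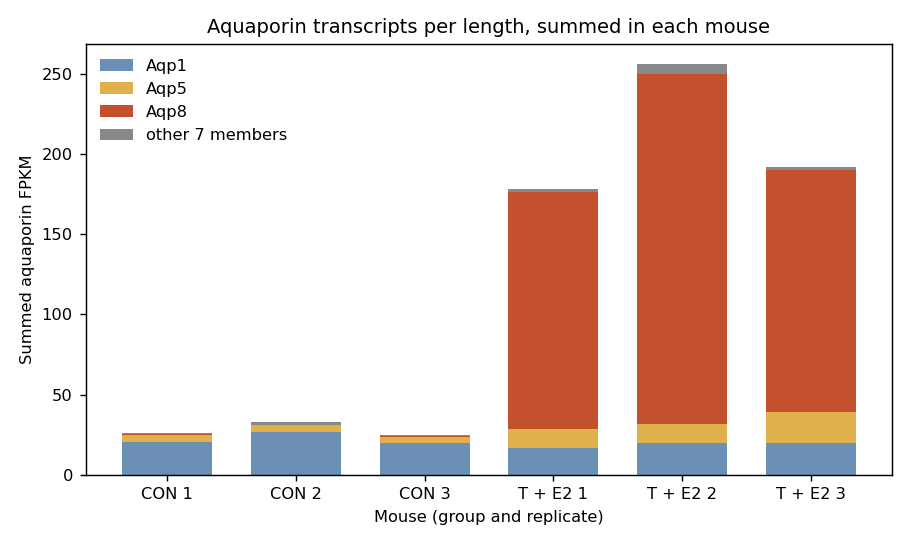
Summed FPKM of the 10 aquaporins in each mouse, stacked by Aqp1, Aqp5, Aqp8 and the other 7 members. Aqp1 fills most of the CON bars, which end between 24.6 and 32.9 FPKM, and Aqp8 fills most of the T + E2 bars, which end between 178 and 256 FPKM.

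Genes whose levels over the 6 mice were most like those of each tested member were ranked by the root mean square difference of centred log2 CPM. For Aqp8 the nearest were Wfdc6b (0.39), Gm16150 (0.82) and Gm12888 (0.95), all of them near 0 CPM in the CON group. For Aqp9 they were Defb48 (0.11), a beta-defensin, Ly6c1 (0.14) and Wfdc3 (0.15), a protease inhibitor. For Aqp5 they were Fosl2 (0.15), an AP-1 transcription factor, Zfp12 (0.16) and Snhg11 (0.17). For Aqp11 they were Ttll6 (0.15), Wisp2 (0.16) and Tnfaip8 (0.16). For Aqp7 they were Tfap2b (0.34), A530016L24Rik (0.36) and Apol6 (0.36). Aqp1 lay at 0.05 from Pde2a, Amd-ps3 and Syde2, as a gene that varied little. The measure rests on 6 mice and includes the difference between the groups.

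The nearest tested gene on each side of the members was compared as well. Lcmt1, a methyltransferase acting on protein phosphatase 2A, lies 31.9 kb upstream of Aqp8 and had 27, 28.8 and 29.3 CPM in the CON mice against 222, 244 and 158 CPM in the T + E2 mice. It was upregulated by a log2 fold change of 2.87 (standard error 0.17). Downstream of Aqp8 the nearest tested gene, Kdm8, lies 1977 kb away and was not a DEG. Aldh1a2, which makes retinoic acid, lies 47.1 kb upstream of Aqp9 and had 11, 7.62 and 9.05 CPM in the CON mice against 216, 211 and 166 CPM in the T + E2 mice. Its log2 fold change was 4.42 (standard error 0.18), larger than that of Aqp9, whereas Lipc, hepatic lipase, on the other side of Aqp9 was downregulated with a fold just past the limit, from 13, 7.23 and 12.2 CPM to 5.33, 6.15 and 4.67 CPM. Aqp5 stood between Faim2 (-0.64) and Racgap1 (0.27), and Aqp11 between Clns1a (0.10) and Pak1 (0.44), of which none was a DEG. Adcyap1r1, the receptor of the neuropeptide PACAP, 103 kb from Aqp1, was downregulated (log2 fold change -1.86, standard error 0.53). Fam188b (0.11) beside Aqp1, Nfx1 (0.03) and Nol6 (-0.28) beside Aqp7 and Aqp3, and Kctd1 (-0.37) and Gm10036 (0.10) beside Aqp4 were not DEGs.

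No other gene of the table overlaps a member on either strand. Within 500 kb of Aqp5, the 17 tested genes had log2 fold changes from -0.69 to 0.38, too small for a DEG. Around Aqp11, 1 of 16 tested genes was a DEG, Capn5 (-1.31, named for this count), as was 1 of 4 around Aqp8, 2 of 7 around Aqp9 and 1 of 7 around Aqp1, against the 4.27% and 3.38% of all tested genes. In the window of Aqp3 it was 1 of 19, Dnaic1 (-2.37, also named for this count), in those of Aqp2 and Aqp6 it was Aqp5 itself, and around Aqp7 and Aqp4 the log2 fold changes lay from -0.42 to 0.48 and from -0.37 to 0.10.

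**Figure D5:**
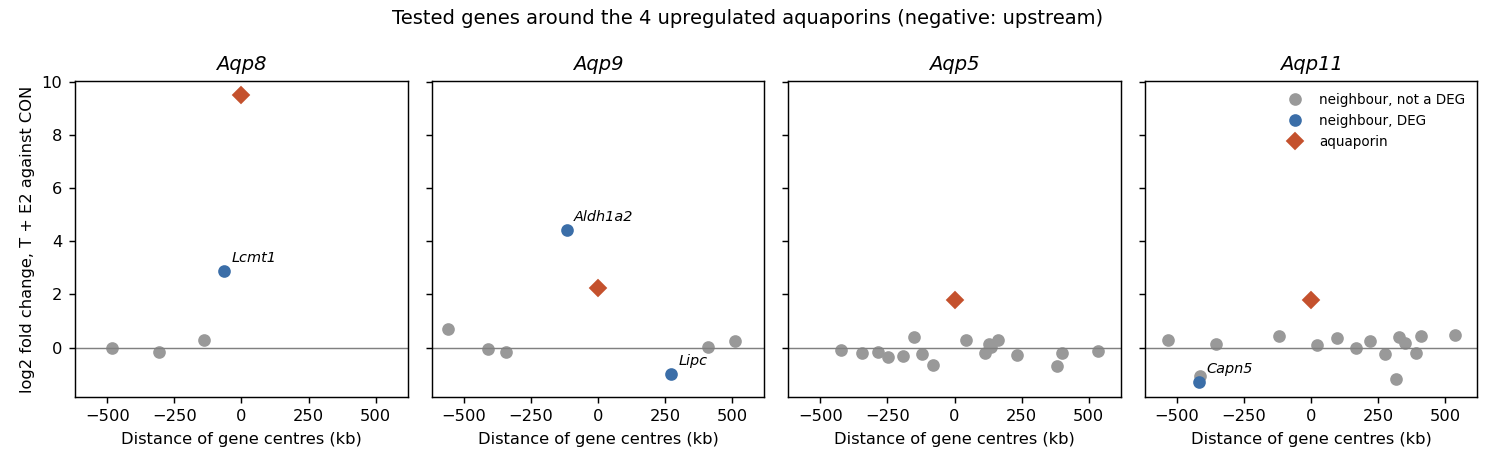
Log2 fold change of each tested gene within 500 kb of the 4 upregulated aquaporins against the distance between gene centres in kb, counted along the aquaporin's own strand so that negative values are upstream (grey, not a DEG, blue, DEG, diamond, the aquaporin). Lcmt1 beside Aqp8 and Aldh1a2 beside Aqp9 are the upregulated neighbours, and Aqp5 has none.

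Genes of ion transport, which sets the gradients water follows, changed in both directions. The list of 44 genes covered chloride, sodium, potassium, bicarbonate and proton transport, and it also held carbonic anhydrases and regulators. All of them are called transporter genes below. Of the list, 34 were tested, 5 were upregulated and 3 were downregulated, beside 4.27% and 3.38% of all tested genes. The median log2 fold change was 0.01 against -0.0021 over all tested genes. The upregulated genes included Slc9a3, Fxyd4, Car12 and Scnn1a, and the downregulated genes were Car2, Atp12a and Slc26a6. By the adjusted p alone, 11 were higher and 9 lower, and the share of all tested genes at that cutoff was not computed.

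Slc9a3 exchanges luminal sodium for protons in absorptive epithelium and had 1.13, 0.591 and 0.44 CPM in the CON mice against 169, 99.8 and 87.3 CPM in the T + E2 mice, or 7.36 on the log2 scale (standard error 0.39). Scnn1a, a subunit of the epithelial sodium channel, had 22.1, 34.4 and 20.3 CPM and 67.5, 56.6 and 96.2 CPM, a change of 1.52 (standard error 0.25). Fxyd4, a regulator of the sodium pump, had 0.265, 0.46 and 0.251 CPM and 2.7, 9.86 and 6.41 CPM, a change of 4.25 (standard error 0.56). The T + E2 mice were above the CON mice for all of these. Some members of the list serve chloride secretion. Ano1, a calcium-activated chloride channel, passed the adjusted p but not the fold limit (log2 fold change 0.87, standard error 0.09), and Cftr, the cyclic AMP-activated chloride channel, had 0, 1 and 1 counts in the CON mice against 12, 11 and 2 in the T + E2 mice and did not pass the filter on low counts. Cftr was called upregulated without that filter and without T + E2 3, the lowest T + E2 mouse. Slc12a2, the cotransporter that loads chloride into secretory cells, was not a DEG at 1705, 1858 and 1338 CPM in the CON mice against 2045, 2024 and 2295 CPM in the T + E2 mice.

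Of the 4 carbonic anhydrases on the list, Car2 and Car12 were DEGs, whereas Car4 (-0.28) and Car14 (-0.31) were tested and not called. Car2, the cytosolic enzyme, fell from 94.5, 97.6 and 101 CPM to 9.68, 7.37 and 9.21 CPM, or -3.48 on the log2 scale (standard error 0.12). Car12, a membrane-bound enzyme facing the extracellular side, rose from 4.5, 3.75 and 5.09 CPM to 24.2, 29 and 20.2 CPM, a change of 2.46 (standard error 0.18). Atp12a, the non-gastric proton and potassium pump, fell from 246, 219 and 315 CPM to 52.9, 25 and 35.7 CPM, a change of -2.78 (standard error 0.27). Slc26a6, an anion exchanger, had 5.03, 3.75 and 5.66 CPM and 3.25, 1.95 and 1.94 CPM, a change of -1.02 (standard error 0.28) that was no longer called without CON 1, CON 3, T + E2 2 or T + E2 3. Slc26a6, Ano1, Cftr and Slc12a2 lie outside the naming rule and were picked with their values known.

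Genes that regulate aquaporins or handle glycerol were examined as well. Among 24 regulators and 14 genes of glycerol handling, 34 were tested and edgeR called 0 in either direction, beside 4.27% upregulated and 3.38% downregulated of all tested genes. At an unadjusted p under 0.05 edgeR had 9 higher and 11 lower, and DESeq2 had 7 higher and 11 lower with 0 DEGs. These counts have no comparison, since the share of all tested genes at that cutoff was not computed. The vasopressin receptors Avpr2 and Avpr1b had 0 counts in every mouse. The third, Avpr1a, had 6.89, 4.6 and 6.6 CPM in the CON mice against 3.25, 4.14 and 3.4 CPM in the T + E2 mice and was not called (log2 fold change -0.74, standard error 0.23). Values that passed the adjusted p without the fold limit included Nedd4l, a ubiquitin ligase of membrane channels, at 0.90 (standard error 0.13), and Mgll, monoglyceride lipase, at -0.92 (standard error 0.12), both chosen after their values were seen. Without CON 2, Nedd4l and Gpat3, an enzyme of glycerolipid synthesis listed under its older symbol Agpat9, became DEGs, and without T + E2 2 Mgll did.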

How the data were processed

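RNA-seq of prostate tissue from 6 mice was analysed, 3 of the CON group and 3 of the T + E2 group, grouped by their labels. The authors deposited raw counts per gene and FPKM values for each mouse in a table of 34745 genes. Per the labels, the submitters' processing notes name TopHat, Bowtie2 and HTSeq; their versions, the annotation and the use of strand are not given in the sources used here. Libraries were made with a TruSeq RNA kit, and the study's comparison used DESeq2. Table coordinates were compared with GENCODE M21 on GRCm38, where 34267 identifiers occurred and 27699 had the same start and end. Pairs of replicates differed by more than sampling noise (chi-square per degree of freedom 16.7 to 36.4).

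Counts were tested in R 4.3.3 with edgeR 4.0.16 (filterByExpr with a minimum count of 10 and total of 15, TMM scaling, glmQLFit and glmQLFTest, Benjamini-Hochberg adjustment), which left 15580 genes with a biological coefficient of variation of 18%. CPM values are TMM-normalized. Standard errors were derived from the F statistic, and the centred log2 CPM used a prior count of 2. An exact permutation test on 3 against 3 mice cannot go below 0.1, so none was used. Alternatives were DESeq2 1.42.0, limma 3.58.1 on log2(FPKM + 0.1) and log2(FPKM + 1), other scalings and filters, a replicate block and fits that leave out each mouse. On simulated data 181 of 200 genes changed by a log2 value of 2 were recovered among 15369, with 12 false calls. Similar transcripts were found with BLAST 2.17.0, promoters came from RefSeq (9 of 10 members used), and plots were made in Python 3.11.15 (matplotlib 3.10.9).

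The members and lists were chosen with earlier results of these data known. Named genes were all members, in each list up to 6 DEGs with the largest change whose groups do not overlap, the 3 nearest patterns of each tested member and its nearest tested neighbours. The text marks some genes as added after their values were seen. Others outside the rule, such as Krt8, Krt18, Cdh1, Vwf, Avpr1a, Avpr1b, Avpr2, Car4 and Car14, are not marked. Some values of the transporter list are not reported here. Same-numbered mice of the 2 groups did not deviate together (r = -0.0516, 0.0275 and 0.0463 over 15580 genes), so the numbers were not taken to pair them.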

Additional observations from a re-analysis of the deposited data

How the results depend on the processing

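The 4 upregulated aquaporins were DEGs under every scaling, without the filter on low counts, with DESeq2, with limma on log2(FPKM + 0.1) and without each mouse in turn. Limma on log2(FPKM + 1) left 2 (Aqp8 and Aqp5), and a filter at an FPKM of 1 left 3, since Aqp9 was then not tested. With a block for the replicate number, which does not pair these mice, 4 aquaporins, 5 upregulated and 2 downregulated transporter genes were DEGs, against 4, 5 and 3 without it, and 1013 genes in all against 1191. Leaving out 1 mouse gave 5 to 7 upregulated and 2 to 5 downregulated transporter genes, the highest count of downregulated genes being 5 without CON 2 and 5 without T + E2 1. For the regulator and glycerol genes it gave 0 to 2 upregulated (2 without CON 2) and 0 to 1 downregulated (1 without T + E2 2). Over all genes, these fits called 553 to 718 upregulated and 402 to 494 downregulated among 15844 to 15894 tested. With all mice, 665 and 526 of 15580 were called. A fit without both CON 2 and T + E2 2 was chosen after seeing the data because both held seminal vesicle transcripts, in T + E2 2 mostly Svs2. Its DEGs included 4 aquaporins and 7 upregulated and 4 downregulated transporter genes. The regulator and glycerol genes had 2 upregulated and 1 downregulated. Over all 15646 genes tested in that fit, 511 were upregulated and 298 downregulated. The cause of these differences was not tested. Aqp2, Aqp3 and Aqp4 did not pass the filter on low counts and were not DEGs without it, and Aqp6 had 0 counts.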
